A study of Mus musculus with 12 samples.

Results

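Stretches of DNA that are dense in CpGs were in most cases nearly free of methylation or nearly full of it in PKD1-Het cells, and the 2050 described here lay between. They are 500-bp tiles of the autosomes with at least 20 CpGs at 5 or more reads in at least 2 PBS libraries and a pooled PBS methylation level from 20% to under 70%. They make up 16.1% of 12731 CpG-dense tiles, of which 7485 were below 20% and 3196 at 70% or more. The PBS levels chose the members, so every comparison with PBS over them is a description. PKD1-Het cells are proximal renal tubule epithelial cells of Pkd1 flox/-:TSLargeT mice, heterozygous for Pkd1 in every group, used at passage 3. They were kept for 24 h in PBS, in Aza at 50 µM, in a free mixture of this Aza dose, tolvaptan at 10 µM and metformin at 300 µM (F-MTAza), or in micelles that carried the same 3 drugs at the same doses (NP-MTAza), with 3 libraries in each group. Aza is 5-aza-2′-deoxycytidine, an inhibitor of DNA methyltransferases. Methylation was read by reduced representation bisulfite sequencing (RRBS), in which DNA is cut at CpG-rich sites, size-selected and treated with bisulfite before sequencing, so the files hold no RNA with which to check the cell type label. Nothing in the labels says that the libraries of a group came from separate cultures or animals, so the spread between them may be technical.

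In mammals, CpG-rich stretches at gene starts usually stay unmethylated and the flanks of these islands are methylated, with a border between them that can be sharp. DNMT1 copies methylation onto the new strand when DNA is replicated, and Aza, once built into DNA, traps this enzyme. A level between none and full can come from alleles that differ, as at imprinted genes, from cells that differ, or from a tile that spans a border, and only the last of these can be seen in levels per CpG.

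Aza replicates 1 and 2 stood apart and were left out: tiles that were unmethylated in PBS had mean levels of 41.6% and 45.1% there and of 1.2% in Aza replicate 3. The other 10 libraries held 25336747 to 65817118 reads over their listed CpGs. PBS replicate 2 was the shallowest PBS library and read higher than the others at unmethylated tiles, with 4.82% against 2.05% and 1.96%. NP-MTAza replicates 1 and 2 were sequenced with 2 barcode sets, as were the Aza replicates 1 and 2 left out, and every other library with 1. Of the 2050 members, 990 had 10 or more CpGs and 50 or more reads in each of the 10 libraries, and their levels are compared below. The filter used depth alone.

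The members were divided by the order of CpG levels within them. An edge tile, of which there were 412, splits into a low and a high side that differ by 40 points or more. A step-inside tile, of which there were 249, holds a middle run that differs from its outside by as much, higher in 149 and lower in 100. A uniform tile, of which there were 276, has sides that differ by under 20 points and an SD of CpG levels under 20 points. The other 1113 tiles were mixed. Tiles of like PBS level belonged to different classes: from 45% to under 50% there were 15 uniform, 48 edge, 39 step-inside and 104 mixed tiles. Over all members the median SD of CpG levels was 15.9 points in uniform tiles and 30.3 points in edge tiles, a contrast that the definitions set. At the lower limit of the rule the nearest tile outside had 19.95% and the nearest inside 20%, and at the upper limit the nearest inside had 69.99% and the nearest outside 70%.

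**Figure D1:**
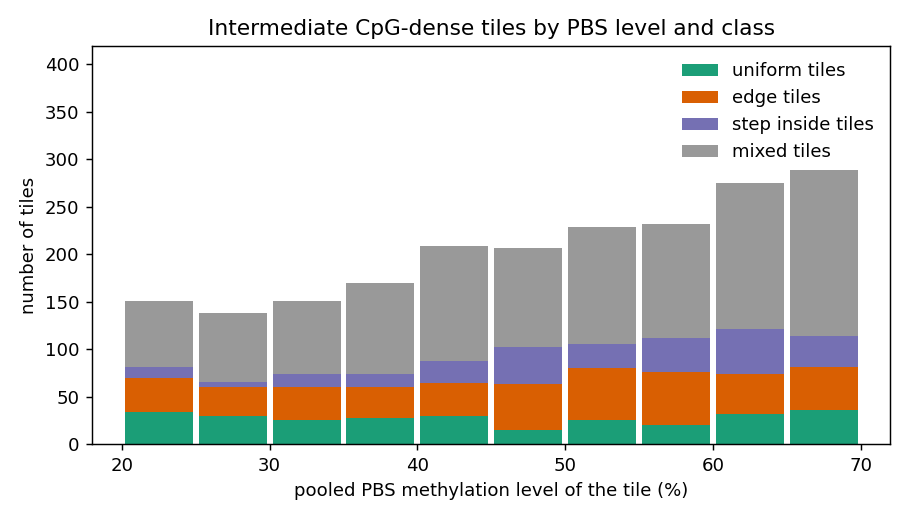
Number of intermediate tiles (y axis) by pooled PBS methylation level in steps of 5 points (x axis), stacked by class. All 4 classes occur at every level, and mixed tiles, 1113 of 2050, are the most frequent class.

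The sequences below show what an edge looks like in 4 tiles: Parp12, Acn9 and Ndufc2, which are among the 4 with the largest difference between sides, and Gls2, which had the highest treated level on its high side. They are the plus strand of mm9, 5′ to 3′, and capitals mark CpGs with a pooled PBS level of 50% or more.
Parp12, chr6:39068604-39068844: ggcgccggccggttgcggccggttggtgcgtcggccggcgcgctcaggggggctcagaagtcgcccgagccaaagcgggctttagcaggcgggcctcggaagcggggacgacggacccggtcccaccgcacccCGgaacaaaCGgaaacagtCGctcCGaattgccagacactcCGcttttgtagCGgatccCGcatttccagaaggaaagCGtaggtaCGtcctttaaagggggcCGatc
Acn9, chr6:6905684-6905924: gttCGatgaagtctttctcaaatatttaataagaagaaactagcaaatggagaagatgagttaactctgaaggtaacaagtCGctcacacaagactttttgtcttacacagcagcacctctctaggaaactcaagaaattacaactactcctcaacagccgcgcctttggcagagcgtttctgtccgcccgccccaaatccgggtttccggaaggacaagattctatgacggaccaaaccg
Ndufc2, chr7:104548604-104548844: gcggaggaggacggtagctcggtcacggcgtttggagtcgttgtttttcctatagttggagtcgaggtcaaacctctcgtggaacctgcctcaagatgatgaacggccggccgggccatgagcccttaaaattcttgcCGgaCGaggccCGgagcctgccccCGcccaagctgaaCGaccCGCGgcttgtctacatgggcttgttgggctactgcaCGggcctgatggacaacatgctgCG
Gls2, chr10:127632332-127632499: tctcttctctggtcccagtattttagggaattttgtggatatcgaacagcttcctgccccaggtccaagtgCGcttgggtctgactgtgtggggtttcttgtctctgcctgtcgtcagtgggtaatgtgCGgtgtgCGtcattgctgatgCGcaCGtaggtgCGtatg
In the runs at Parp12 and Ndufc2 the capitals sit together in the right part, and at Acn9 the 2 capitals lie to the left. At Gls2, 5 capitals close the run, and 1 more, a CpG at 58.8% over 34 PBS reads, lies on the low side. Lower-case CpGs were either below 50% or not listed. The next 3 are uniform tiles, 2 with a PBS level near 50% and 1 at an imprinted gene, with capitals on CpGs with a pooled PBS level from 20% to under 80%. The tile headed Evi5 overlaps Gfi1 and is 77815 bp from the start of Evi5.
Filip1l, chr16:57391590-57391789: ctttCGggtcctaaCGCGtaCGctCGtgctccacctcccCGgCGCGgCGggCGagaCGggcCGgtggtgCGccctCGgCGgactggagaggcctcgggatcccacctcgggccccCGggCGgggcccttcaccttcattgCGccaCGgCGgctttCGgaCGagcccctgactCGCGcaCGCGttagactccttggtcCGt
Evi5, chr5:108150701-108150900: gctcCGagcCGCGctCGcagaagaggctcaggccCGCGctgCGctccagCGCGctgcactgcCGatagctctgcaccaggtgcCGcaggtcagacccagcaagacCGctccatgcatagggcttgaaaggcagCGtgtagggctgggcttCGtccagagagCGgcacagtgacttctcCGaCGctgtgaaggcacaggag
Commd1, chr11:22872598-22872797: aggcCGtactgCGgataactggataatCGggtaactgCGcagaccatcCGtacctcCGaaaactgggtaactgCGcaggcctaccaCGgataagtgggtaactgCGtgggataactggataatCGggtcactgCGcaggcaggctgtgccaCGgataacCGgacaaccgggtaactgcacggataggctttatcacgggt
A uniform tile can also hold CpGs outside that range, since its definition limits the SD and the difference between sides.

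The level of the intermediate tiles was lower in every treated library than in every PBS library. The mean over the 990 tiles was 48.5%, 51.8% and 47.8% in the 3 PBS libraries. It was 35.2%, 34.7% and 35.4% in F-MTAza, 34.0%, 34.6% and 32.5% in NP-MTAza and 32.6% in Aza replicate 3. The 7 treated libraries lay between 32.5% and 35.4%, so they did not overlap with PBS. The 6 libraries of the drug combination, free or in micelles, averaged 34.4% ± 1.06 (SD, n = 6), 15.0 points below PBS and 1.75 points above the single Aza library, which has no replicate. Treated libraries kept 69.1% ± 2.37 (SD, n = 7) of the mean PBS level of these tiles.

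The same comparison was made with a PBS library that had no part in the choice. With members chosen on the other 2 libraries, the combination was 13.6 points below PBS replicate 1, 17.7 below replicate 2 and 13.1 below replicate 3. Tiles chosen in this way had levels of 48.5%, 52.6% and 47.6% in the PBS library left out, so intermediate levels recurred in a library the rule had not used.

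**Figure D2:**
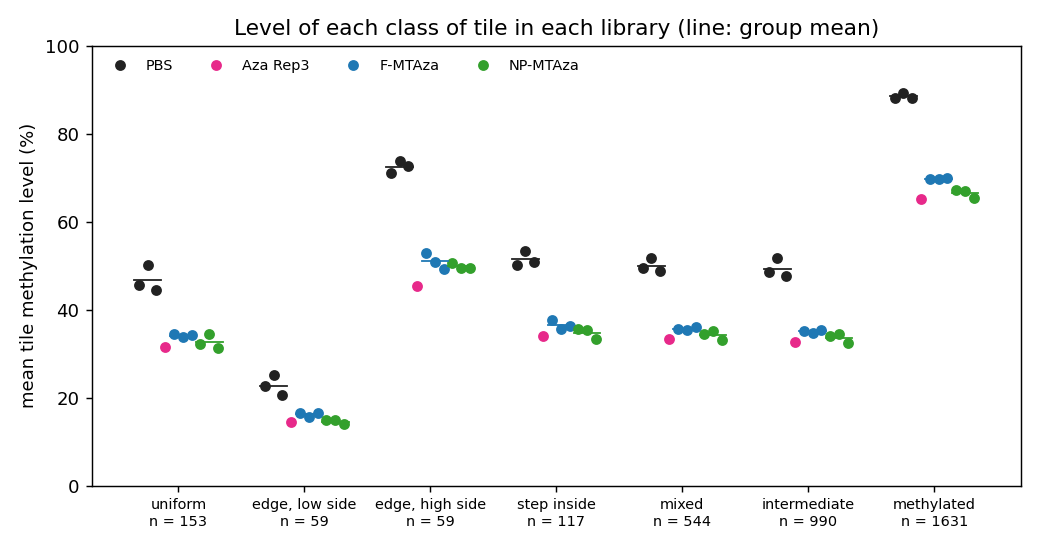
Mean tile methylation level (y axis, %) in each library (points) for each class of tile (x axis, with the number of tiles measured in all 10 libraries), and for tiles methylated in PBS. Lines mark group means, and in every class the treated libraries lie below the 3 PBS libraries.

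Nearly all tiles shared in the loss. The combination mean was below the PBS mean in 983 of 990 tiles, beside 96.7% of all 6052 CpG-dense tiles measured. All 6 combination libraries were below all 3 PBS libraries in 549 of the 990, beside 36.1% of all tiles, and in 0 were all 6 above. The share of the PBS level kept ran from 49.0% at the 5th percentile over tiles to 68.5% at the median and 85.7% at the 95th. Across the 990 tiles the PBS and combination means had a Pearson r of 0.92, in which the points share libraries and are not independent. The median SD between libraries of a tile was 4.87 points in PBS, 6.31 in F-MTAza and 5.47 in NP-MTAza.

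Calls came from limma on all 6052 tiles and needed both a level 10 points away and a Benjamini-Hochberg adjusted p below 0.05. Of the 990 members, 525 were called lower in F-MTAza than in PBS (30.9% of all tiles were), 609 in NP-MTAza (34.9%) and 297 in Aza replicate 3 (24.2%), and 0 were called higher in each. The PBS levels fix much of this, since a tile near 0 cannot lose 10 points. With members chosen on the other PBS libraries and PBS read from 1 library alone, fewer members were called, most of all against replicates 1 and 3. Against these 2 replicates a smaller share of members than of all tiles was called lower, the reverse of the order above. Against replicate 2 the share of members was the larger, and a few members were called higher. A single PBS library gives no spread of its own, so these shares do not settle whether members were called more often. The median differences of members from PBS replicate 1 were −12.9 points in F-MTAza, −14.5 in NP-MTAza and −15.2 in Aza replicate 3. Over all tiles they were −1.52, −1.69 and −1.86. Against replicate 2 members had −16.9, −18.4 and −19.0, beside −5.13, −5.43 and −5.38 over all tiles. Against replicate 3 they had −12.6, −13.6 and −14.6, beside −1.56, −1.68 and −1.81. Leaving out PBS replicate 1, 2 or 3 gave 192, 277 and 196 lower calls in F-MTAza, of 496, 971 and 495 members. Over all tiles these were 830, 1253 and 846 of 3103, 6112 and 3056. In NP-MTAza 235, 340 and 242 members were called lower, beside 988, 1497 and 1009 of all these tiles. There 1 member was called higher without PBS replicate 3.

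The means of free drugs and micelles were compared without PBS, so the rule had no part in the permutation test. The mean over members was 35.1% ± 0.38 in F-MTAza and 33.7% ± 1.09 in NP-MTAza (SD, n = 3 each), 1.41 points lower in micelles, and the 3 NP-MTAza libraries were all below the 3 F-MTAza libraries. The two-sided exact permutation p was 0.10, the smallest that 3 against 3 libraries allow. The margin was narrow, with 34.59% in NP-MTAza replicate 2 and 34.65% in F-MTAza replicate 2. Under some other settings the separation was not full. With each CpG counted equally the difference was −1.46 points (exact permutation p = 0.2). With CpGs listed in all 10 libraries it was −1.22 (exact permutation p = 0.3). With 10 reads per CpG it was −0.69 (exact permutation p = 0.6). With tiles shifted by 250 bp it was −1.90, and in a PBS window of 30% to under 60% −1.47 (exact permutation p = 0.1 each). There, and with members chosen without each PBS library in turn, the separation was full. With libraries of 1 barcode set, where NP-MTAza is 1 library, the difference was −2.53. No member was called different by limma with Benjamini-Hochberg adjustment: 0 of 990, beside 0.033% of all tiles called lower in NP-MTAza. Of the 990, 80 had an unadjusted limma p under 0.05. The limma model also held the PBS libraries, which shared in its estimate of spread. The NP-MTAza mean was below the F-MTAza mean in 598 of 990 tiles, and the difference ran from −12.1 points at the 5th percentile to 8.77 at the 95th. Leaving out NP-MTAza replicate 3 brought the mean difference from −1.41 to −0.80 points.

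The share kept was larger where the PBS level was higher. Tiles with a PBS level of 20% to under 30% went from 25.8% to 16.0% in the combination and kept 61.8%. The share was 64.8% in the next step of 10 points, then 68%, 71.2% and, at 60% to under 70%, 72.3%. The same order held where 2 PBS libraries set the step and the third gave the level: against PBS replicate 1 the share kept in the combination was 64.9% in the lowest step, 74.7% in the highest and 78.6% in methylated tiles. Against replicate 2 these values were 54.9%, 70.7% and 76.7%, and against replicate 3 63.7%, 75.5% and 78.8%. In points, the highest step lost most among intermediate tiles, from 65.8% to 47.6%. No test was run on this order, since PBS levels set it, and how far the higher reading of PBS replicate 2 at low levels bears on its values was not tested.

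**Figure D3:**
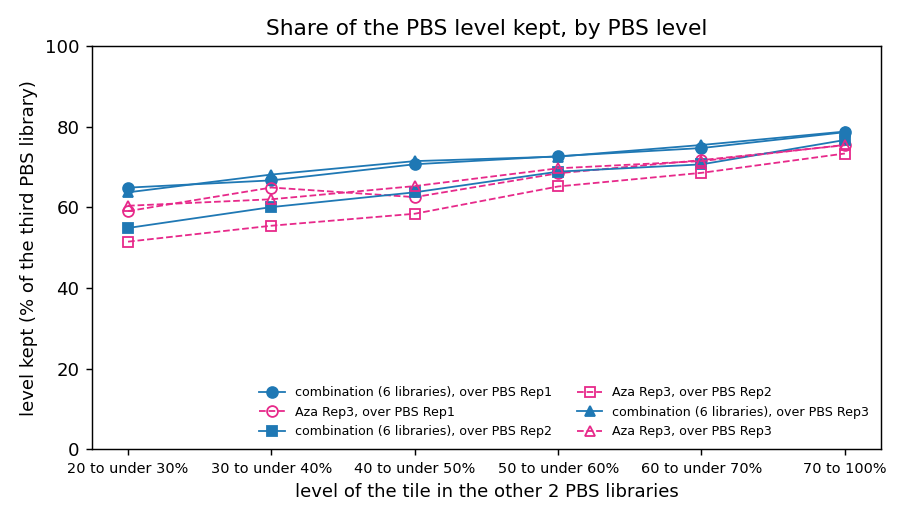
Share of the PBS level kept (y axis, % of the PBS library that did not set the step) by the level in the other 2 PBS libraries (x axis). Filled symbols are the mean of 6 combination libraries and open symbols Aza replicate 3, with 1 line for each PBS library left out, and the lines climb from 54.9% to 64.9% in the lowest step to 76.7% to 78.8% in methylated tiles for the combination.

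Uniform tiles kept somewhat more of their level than edge tiles. The 153 uniform tiles went from 46.8% ± 2.99 in PBS (SD, n = 3) to 34.2% ± 0.33 in F-MTAza and 32.7% ± 1.66 in NP-MTAza (n = 3 each), with 31.5% in Aza replicate 3. The 176 edge tiles went from 48.2% ± 3.47 to 33% ± 0.66 and 31.9% ± 1.00, with 30.1% in Aza replicate 3. The uniform tiles kept 70.8% ± 3.02 and the edge tiles 66.7% ± 2.55 over 7 treated libraries, and the uniform tiles kept more in 7 of 7, by 4.17 ± 2.03 points (SD, n = 7). Step-inside tiles kept 68.7% and mixed tiles 69.5%. Among tiles of 40% to under 60% in PBS, where the classes start alike, 51 uniform tiles kept 72.6% and 91 edge tiles 66.8%. With the PBS library left out of the choice as the base, uniform tiles kept more by 4.38, 5.30 and 4.27 points, in 7, 7 and 5 of 7 libraries.

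On both the low and the high side of an edge the treated levels were below those in PBS. In 59 edge tiles with 5 or more CpGs on each side in every library, the low side went from 22.8% ± 2.29 in PBS (SD, n = 3) to 15.4% ± 0.99 in the combination (n = 6), and the high side from 72.5% ± 1.37 to 50.5% ± 1.38. The low side kept 67.1% ± 4.29 and the high side 68.6% ± 3.18 over 7 treated libraries. With the PBS library left out of the choice as the base, the combination kept 67.9% on the low and 70.9% on the high side against PBS replicate 1, 57.0% and 68.4% against replicate 2 and 68.1% and 69.2% against replicate 3. The gap between the sides was thus widest against PBS replicate 2, which read higher than the others at unmethylated tiles, and the part of that in the gap was not tested. The difference between the sides was 49.8 points in PBS and 35.1 in the combination. In Aza replicate 3 the low side stood at 14.4%, the high side at 45.4% and their difference at 30.9 points, below each of the 6 combination libraries, of which the lowest had 32.8. The single Aza library allows no test of that gap.

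**Figure D4:**
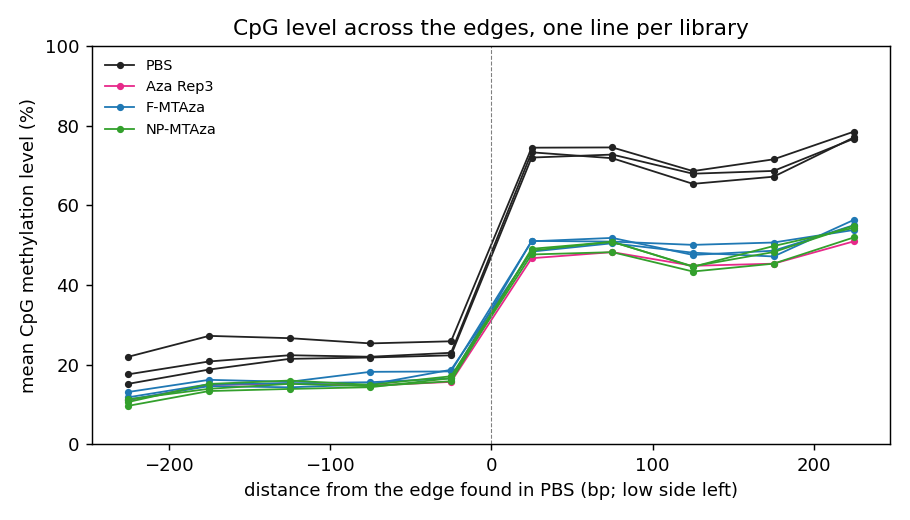
Mean CpG methylation level (y axis, %) in steps of 50 bp from the edge found in PBS (x axis, low side to the left) over the edge tiles, with 1 line per library. Within 50 bp the PBS libraries go from 22.3% to 25.8% on the low side to 72% to 74.5% on the high side, and the treated libraries from 15.7% to 18.7% to 46.7% to 51.0%.

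Most edges were found at the same place after treatment. The best split was found again in the pooled reads of the 6 combination libraries, with no use of PBS reads, for 410 edges. It fell in the same gap between CpGs in 234 of them, 57.1%, and within 25 bp in 287, 70% (95% Wilson interval 65.4% to 74.2%, counting error only). The low side was the same side in 400 of 410. Single PBS libraries, whose reads had part in placing the edges, gave 78.6% to 83.7% within 25 bp, and Aza replicate 3 gave 62.4% of 388. The edges were narrow, with a median gap of 20 bp between the last CpG of a side and the first of the other.

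The edges had an orientation. The low side was nearer to the closest annotated start of a gene in 291 of 412 edge tiles, 70.6%, and in 221 of the 287 within 1000 bp of a start, 77.0%. Beyond 5000 bp it was nearer in 35 of 63. The low side was also the richer in CpGs, with a median of 7.77 CpGs in the reference per 100 bp against 6.43 on the high side, and in G and C, with 65.9% against 61.0%. Where both neighbouring tiles had a level, the neighbour on the low side had a median of 24.6% and that on the high side 76.3%, and their order was that of the sides in 149 of 185.

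The single edges give the levels behind these means. Parp12 codes for a poly-ADP-ribose polymerase family member. In its promoter, in the tile chr6:39068500-39068999, the 22 CpGs of the low side had a level of 15.0% and 6.7% in PBS replicates 1 and 3, and the 17 of the high side had 94.5%, 91.7% and 93.3% in the 3 PBS libraries. In the combination the low side averaged 3.5% and the high side 68.5% over 6 libraries, the latter from 52.6% to 85.0%. So each combination library was below each PBS library on the high side. Refitted in the pooled combination reads, the edge moved by −21.5 bp (−2 CpGs). PBS replicate 2 lists under 5 CpGs of the low side, and its level for the whole tile, 91.7%, comes from the high side alone.

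Acn9, known in yeast as a factor of the respiratory complex that oxidises succinate, has its edge the other way round on the plus strand, in chr6:6905500-6905999. Its high side had 92.5%, 94.0% and 91.9% in PBS, and 50.0% to 63.5% in the 4 combination libraries that list 5 or more of its 7 CpGs. The low side averaged 12.9% in PBS and 5.8% in the combination. Both sides were thus lower, with no overlap on the high side. Refitted in the pooled combination reads, this edge moved by −78 bp (−1 CpG), and those at Ndufc2 and Gls2 by 0 bp.

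Ndufc2 codes for a subunit of respiratory complex I, and its tile, chr7:104548500-104548999, begins the gene and was not among the measured tiles. The low side was at 2.4% and 1.8% in the 2 PBS libraries that cover it, and the high side at 67.2%, 67.9% and 85.9%. The low side averaged 3.8% over the 6 combination libraries and the high side 60.1%, from 49.1% to 68.4%. The groups overlap on the high side here. Across the 35 bp of the edge itself, the pooled PBS level went from 0% (17 reads) to 90.6% (32 reads), and in the combination from 3.85% (26 reads) to 78.1% (32 reads).

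Gls2, a glutaminase that turns glutamine into glutamate, had the high side with the highest treated level. Its 5 CpGs, at the end of chr10:127632000-127632499, had 96.2%, 100% and 96.2% in PBS, 58.3% to 85.3% in the combination and 74.9% in Aza replicate 3. The 30 CpGs of the low side averaged 25.7% in PBS and 17.5% in the combination. Over the 17 bp of the edge the PBS level went from 40.7% to 98.2% (113 reads each) and the combination level from 32.3% (167 reads) to 78% (164 reads).

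**Figure D5:**
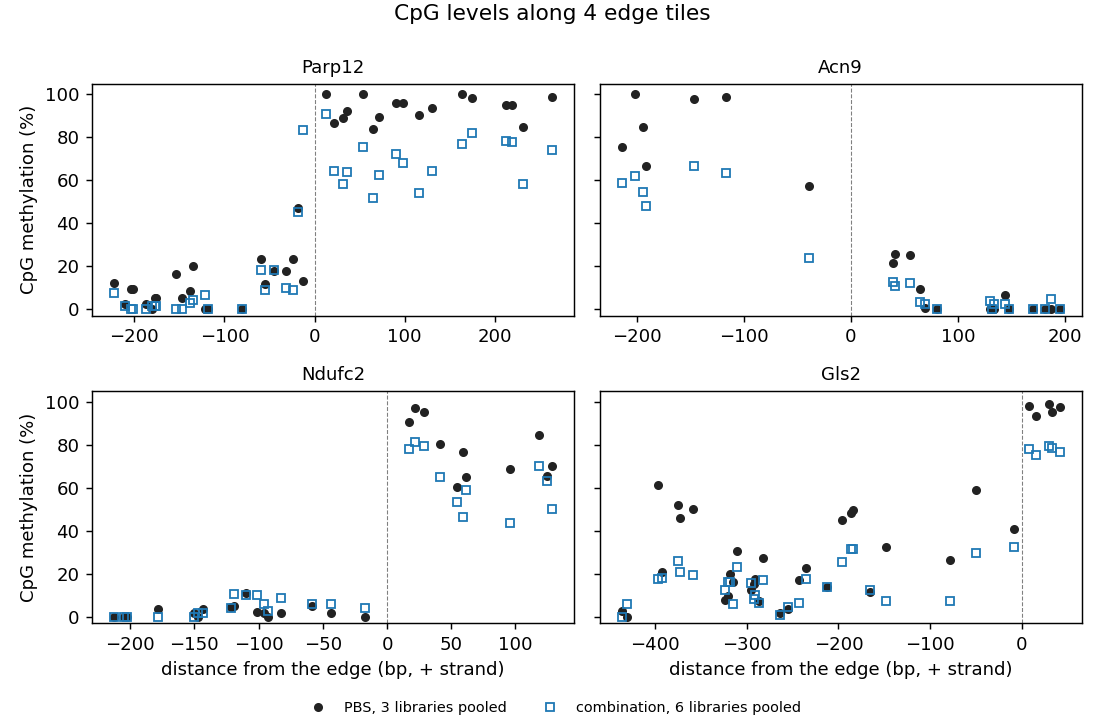
Methylation level of each CpG (y axis, %) by distance from the edge (x axis, bp along the plus strand) in the edge tiles at Parp12, Acn9, Ndufc2 and Gls2, with reads pooled over 3 PBS libraries (filled circles) and 6 combination libraries (open squares). The high side lies to the right at Parp12, Ndufc2 and Gls2 and to the left at Acn9, and its combination levels are mostly below those in PBS.

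Other edges named by the same rule showed the spread of the high side. Among those with the highest treated levels after Gls2 were an intergenic tile whose nearest start, Tacc1, is far away and a tile at Zc3h7a. The edge tile at Zc3h7a, a zinc-finger protein, is chr16:11144000-11144499, and its high side had 98.0%, 100% and 96.3% in PBS, 54.1% to 89.9% in the combination and 63.0% in Aza replicate 3. Its low side averaged 48.2% in PBS and 30.4% in the combination. No treated library reached the PBS range on the high side. The level of an edge tile as a whole moves with which of its CpGs a library lists, as at Parp12 in PBS replicate 2.

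The high side was lowest in treated libraries at Itpr1, Mnx1 and Tmem158 and in an intergenic tile with Usp14 as its nearest start. In the promoter of Itpr1, the calcium channel of the endoplasmic reticulum that opens with inositol trisphosphate, the high side averaged 47.4% in PBS and 23.0% in the combination (11.9% to 45.9%), with 16.3% in Aza replicate 3. The low side averaged 1.9% in PBS and 1.4% in the combination, and on the high side 1 combination library, at 45.9%, reached the PBS range of 42.2% to 57.3%. Tmem158, a membrane protein first found through Ras-induced senescence, held an edge tile and, next to it, the uniform tile chr9:123169000-123169499. That uniform tile had 17.9%, 25.2% and 25.7% in PBS, 0.8%, 6.6% and 16.6% in F-MTAza, 10.8%, 11.1% and 11.3% in NP-MTAza and 3.0% in Aza replicate 3. All treated libraries were below the 3 PBS libraries.

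Uniform tiles near 50% in PBS did not behave alike. The tile in Filip1l, chr16:57391500-57391999, was read more than 10 times as deeply as the median member, with 2224 to 9967 reads per library. It had 50.1%, 55.0% and 49.8% in PBS, 33.7%, 39.9% and 32.8% in F-MTAza, 34.4%, 43.8% and 32.0% in NP-MTAza and 30.6% in Aza replicate 3. The PBS and treated libraries did not overlap. The tile chr5:108150500-108150999 overlaps Gfi1, a zinc-finger repressor of blood cell development. Its nearest start annotated as protein-coding is that of Evi5, 77815 bp away. It had 51.8%, 45.4% and 52.8% in PBS, 56.8%, 30.9% and 51.7% in F-MTAza, 53.8%, 59.2% and 38.2% in NP-MTAza and 47.7% in Aza replicate 3, with 132 to 436 reads per library. The groups overlap there, and treated libraries lie on both sides of PBS. At Lin7b, a scaffold protein of epithelial junctions, F-MTAza ran from 18.5% to 65.5% and PBS from 35.2% to 54.4%. The Lin7b tile was not among the measured tiles, and the part of which CpGs a library lists in this spread was not tested. At Irs2, an adaptor of the insulin receptor, PBS itself ran from 34.8% to 65.9%.

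The uniform tiles with the highest treated level lay at Btbd11, Arhgap20 and Negr1 and in an intergenic tile that overlaps Gm2464. At the start of Negr1, a cell adhesion protein of neurons, PBS had 66.1%, 69.4% and 65.9%, F-MTAza 66.1%, 55.3% and 55.9%, NP-MTAza 52.4%, 55.0% and 46.6%, and Aza replicate 3 60.9%. Only F-MTAza replicate 1 reached the PBS range. Besides Tmem158, the lowest treated levels were at Socs2, Sema6a and Dse, of which the tile at Sema6a was not among the measured tiles. At the start of Socs2, which dampens growth hormone signalling, PBS had 21.8%, 19.8% and 23.4%, F-MTAza 22.4%, 5.8% and 4.8%, NP-MTAza 11.8%, 6.6% and 12.3%, and Aza replicate 3 9.8%. F-MTAza replicate 1 lay within the PBS range and the other treated libraries below it.

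In 7 measured tiles the combination mean was not below the PBS mean, and they were picked out by that value and carry no test. Among their nearest starts were those of Gsg1l, L3mbtl3 and Adcy8. Others lay far from any start, at −219049 bp from that of Gm10479 and −365202 bp from that of Rapgef5 (negative is upstream). The latter tile lies in Ptprn2. The uniform tile at the start of L3mbtl3, a reader of methylated lysines, had 31.8%, 32.7% and 37.9% in PBS and 27.8% to 43.6% in the combination. At Adcy8, an adenylyl cyclase, PBS had 47.3% to 56.0% and the combination 39.9% to 67.2%. In each of the 7 the groups overlapped. At the other end, also picked by value, the edge tile at the start of Sfmbt1, a Polycomb-group protein, went from 55.9%, 76.1% and 55.5% in PBS to 15.2% to 47.4% in the combination. Its groups did not overlap.

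The place of the intermediate tiles in the genome lay between that of the other tiles. By their midpoint, 60.8% were in a promoter, from 2000 bp before to 500 bp after a start, against 86.7% of the unmethylated and 40.8% of the methylated CpG-dense tiles. Their median distance to a start was 428 bp, against 181 bp and 1166 bp. Their ratio of observed to expected CpGs in the reference, 0.765 at the median, was near that of methylated tiles, 0.758, and below that of unmethylated tiles, 0.854. Among the classes, uniform tiles were in a promoter in 65.2%, edge tiles in 60.4% and step-inside tiles in 54.6%, and uniform tiles had the highest ratio, 0.818. The share of intermediate tiles was 12.7% to 19.9% of the CpG-dense tiles of each chromosome. These are descriptions of fixed features and carry no test.

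Intermediate CpG-dense tiles formed 1742 runs of adjoining tiles, of which 1484 were single tiles, 224 pairs and 34 longer. These runs count only neighbours that are CpG-dense too. Of neighbouring tiles with 5 or more CpGs, dense or not, those of edge tiles were below 20% in 29.8%, intermediate in 41.1% and at 70% or more in 29.1%, whereas those of uniform, step-inside and mixed tiles were intermediate in 67.3%, 62.0% and 65.3%. Runs of 4 tiles lay at Tcfap2c, Ascl2, Mtap7, Cdh23, Jag2 and Sema5a, and 1 had no gene in it. The run at Ascl2, an imprinted factor of the placenta, had 38.2%, 37.3% and 31.7% in PBS, 26.0%, 28.0% and 25.2% in F-MTAza, 18.4%, 20.8% and 24.7% in NP-MTAza and 15.9% in Aza replicate 3. At Jag2, a Notch ligand, F-MTAza replicate 3 stood at 50.1%, above the PBS libraries at 40.3%, 35.1% and 48.2%.

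The longest run, chr17:39980000-39985999, had 12 tiles, 9 of them uniform, and overlaps the annotated gene AY036118. It took 1065390 PBS reads. Whether so deep a stretch is 1 locus or the sum of several copies was not tested, so its levels may be means over copies. They were 39.5%, 47.7% and 38.5% in PBS, 29.3%, 28.7% and 30.4% in F-MTAza, 29.6%, 29.4% and 25.2% in NP-MTAza and 26.9% in Aza replicate 3. All 7 treated libraries were below all 3 PBS libraries. These 12 tiles are among 20 members read more than 10 times as deeply as the median, and without the 20 the uniform tiles kept more than the edge tiles by 4.40 points.

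Imprinted genes carry methylation on the allele from 1 parent alone. Of 55 CpG-dense tiles at listed imprinted genes, 16 were intermediate, 29.1% beside 16.1% of all CpG-dense tiles, and 5 of the 16 were uniform. The combination mean was below the PBS mean in 8 of 8 measured, with 4 called lower in F-MTAza and 5 in NP-MTAza. Over all tiles 96.7% were below and 30.9% and 34.9% were called. Over all 990 measured intermediate tiles these shares were 99.3%, 53.0% and 61.5%, so the listed tiles were near the other members. The median difference between combination and PBS was −14.4 points. The tile chr11:22872500-22872999 lies at annotated starts of Zrsr1, an imprinted gene, and of its host gene Commd1. It had 48.4%, 65.5% and 56.7% in PBS, 71.9%, 28.0% and 70.6% in F-MTAza, 33%, 17.5% and 25.9% in NP-MTAza and 33.5% in Aza replicate 3, with 121 to 552 reads per library. In Aza replicate 3 the listed CpGs from 22872602 to 22872749 were at 0% (6 to 13 reads each). Those from 22872855 on were at 30% to 53.8% there, so its level is a mean over unlike parts. F-MTAza replicates 1 and 3 were above the PBS libraries, and replicate 2 lay among those of NP-MTAza. Free drugs and micelles differed there by −31.4 points, with an unadjusted p of 0.00300 and an adjusted p of 0.301 by limma, so the difference missed the threshold. The next tile, chr11:22873000-22873499, averaged 45.8% in PBS and 44.9% in the combination and was too shallow to be tested. At Gnas, the stimulatory G protein subunit, a promoter tile had 29.2%, 42.9% and 31.9% in PBS and 12% in Aza replicate 3. It had a range of 25% to 28.7% with free drugs and one of 14.3% to 19.5% with micelles. That difference, −9.6 points, missed the threshold too (limma, unadjusted p = 0.0278, adjusted p = 0.637). In the other measured Gnas tiles these groups overlapped. The tile chr2:174125500-174125999 had 31.6% to 59.1% with free drugs and 41.7% to 47.6% with micelles.

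Developmental transcription factors held 108 intermediate tiles of 407 CpG-dense tiles, 26.5%, at 63 genes, and 65 of the 108 were mixed. The combination was below PBS in 59 of 59 measured, 41 were called lower in F-MTAza and 41 in NP-MTAza, and the median difference between combination and PBS was −15.5 points, beside −14.2 in F-MTAza and −15.4 in NP-MTAza over all members. Over all tiles 96.7% were below, and 30.9% and 34.9% were called lower. Over all 990 measured intermediate tiles these shares were 99.3%, 53.0% and 61.5%. The promoter tile of Tbx1, a T-box factor of the developing pharynx, is uniform and had 62.3%, 61.3% and 68% in PBS, 46.3%, 44.6% and 43.7% in F-MTAza, 54.9%, 40.4% and 46.5% in NP-MTAza and 48.2% in Aza replicate 3. Barhl1, a homeobox factor of the brain and inner ear, had 62.3%, 65.0% and 61.5% in PBS and 44.5% to 48.0% in the combination, over 1410 to 6200 reads per library. Neither overlapped with PBS. At Wt1, which is needed for kidney development, a tile 3691 bp from a start had 67.2%, 65.0% and 66.0% in PBS and 38.1% to 46.0% in the combination. The edge tile at Sall1, another factor of the developing kidney, had 19.5%, 27.5% and 22.8% in PBS and 7.1% to 17.2% in the combination.

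Genes of Wnt and Hippo signalling, the former a pathway of secreted ligands and Frizzled receptors that acts through β-catenin, held 34 intermediate tiles of 115, 29.6%, at 22 genes, and 11 of the 34 were uniform. The combination was below PBS in 21 of 21 measured, with 15 called lower in F-MTAza and 13 in NP-MTAza. Over all tiles 96.7% were below and 30.9% and 34.9% were called lower. Over all 990 measured intermediate tiles these shares were 99.3%, 53.0% and 61.5%. In Aza replicate 3 the median difference from PBS was −20.8 points, beside −16.3 over all members. Among ligands, the promoter tile of Wnt7b had 74.3%, 65.1% and 65.2% in PBS, 52.5%, 48.3% and 50.0% in F-MTAza, 50.3%, 24.9% and 36.1% in NP-MTAza and 34.8% in Aza replicate 3. Of the receptors, Fzd2 held an edge: its high side averaged 60.5% in PBS and 34.2% in the combination, and its low side 10.7% and 6.3%. The tile as a whole had 30.1%, 37.4% and 42.9% in PBS and 17.3% to 33.6% in the combination, so the groups overlapped. Sfrp1 codes for a secreted inhibitor that binds Wnt ligands, and its promoter tile chr8:24522000-24522499 was uniform over 59 CpGs. It had 64.3%, 71.2% and 70.5% in PBS, 50.0%, 57.8% and 51.8% in F-MTAza, 53.6%, 63.0% and 61.6% in NP-MTAza and 45.2% in Aza replicate 3. At Wnt7b and Sfrp1 no treated library reached the PBS range. Lef1, a nuclear partner of β-catenin, had 2 tiles, 1 mixed and 1 uniform, which went from 61.7% to 36.1% and from 57.0% to 39.6% between the PBS and combination means.

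The other lists held few members. There were 6 of 71 tiles at cell cycle and tumour suppressor genes, 4 of 14 at proximal tubule genes, 1 of 5 at genes of other kidney cell types, 1 of 35 at genes of polycystic kidney disease and the cilium, 1 of 24 at germline genes, 1 of 30 at clustered protocadherins and 0 of 21 at housekeeping genes. For the last, 20 of 21 tiles were unmethylated, and for germline genes 21 of 24 were methylated. The promoter tile of Ggt1, a brush-border enzyme of the proximal tubule that cleaves glutathione, has AI646023 as its nearest start and had 21.5%, 21.4% and 29.2% in PBS, 11.6% to 18.9% in the combination and 28.1% in Aza replicate 3. The combination libraries were below PBS and the Aza library was not. Podxl, a surface protein of podocytes, had 59.3% to 65.1% in PBS, 62.1%, 46.8% and 63.8% in F-MTAza and 36.2%, 49.8% and 50.0% in NP-MTAza. The tile of the cilium list lies at starts of both Kcnab2, the nearer, and Nphp4, a protein of the ciliary transition zone, and was not among the measured tiles. It had 23.5% and 21.8% in PBS replicates 1 and 3 and 10.0% to 20.6% in the combination. At Runx1, a transcription factor of blood cell development, PBS had 47.7%, 45.5% and 46.5%, F-MTAza 9.6% to 43.9%, NP-MTAza 29.3%, 43.7% and 39.3%, and Aza replicate 3 48.2%. The combination libraries were below PBS there and the Aza library was above it.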

How the data were processed

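DNA methylation was measured by RRBS in 12 libraries. Per the submitters' processing notes, reads were trimmed with Trim Galore 0.4.4 and aligned with Bismark 0.20.1 and Bowtie2 to mm9. The deposited files list CpGs with 5 or more reads, both strands merged, as methylated over total reads and as a percent rounded down by the authors, and levels were computed from the read numbers. Files hold no header, and 99.98% of 20000 positions checked were CpGs in mm9. A tile's level is its methylated over all reads at CpGs listed in at least 2 PBS files. Depth was 25336747 to 65817118 reads per library, and a median of 998.5 PBS reads per member.

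Members, classes, gene lists and tests were chosen with earlier results of these data known. Tiles with 10 or more CpGs and 50 or more reads in each of 10 libraries were tested with limma 3.58.1 (R 4.3.3) on the arcsine square root of the level, in a model of 4 group means, with Benjamini-Hochberg adjustment. The test was tried on simulated data. Library means were compared by exact permutation (scipy 1.17.1), and genes came from GENCODE for mm9. Named tiles, with 100 or more reads in each library, were the 4 uniform tiles nearest 50%, the 4 edges with the largest difference, the 4 highest and 4 lowest treated uniform tiles and high sides, and up to 3 promoter tiles per list; others were chosen after their values were seen. Sequences from mouse chromosome 18 are not shown, and some named tiles and 1 sequence are not reported here. Replicate numbers did not pair the samples.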

Additional observations from a re-analysis of the deposited data

Results flagged for a closer look

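Aza replicates 1 and 2, which no comparison uses, gave signal above the PBS libraries in places. Over all uniform tiles Aza replicate 2 had a mean level of 49.0%, against 40.7%, 48.9% and 39.1% in PBS. On the low side of the edge tiles Aza replicates 1 and 2 had 40.6% and 43.9%, against 20.6% to 25.6% in PBS and 14.6% in Aza replicate 3, while on the high side they had 40.2% and 43.9%, so the sides hardly differed in these libraries.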

How the results depend on the processing

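Calls against PBS depend on how many members a setting compares: 96 with 10 reads per CpG and 990 in the main run. There the called share rose from 53% to 65.6% with free drugs and from 61.5% to 68.8% with micelles. In the PBS window of 30% to under 60% the shares were 49.7% and 59.9% of 569 members. Why shares fell in this and other settings was not tested. Over all tiles, 215 were called lower in F-MTAza and 235 in NP-MTAza of 639 with 10 reads per CpG. With CpGs listed in all 10 libraries these were 1054 and 1220 of 3842. With PBS read only from the library left out of the choice, 496, 859 and 492 members were compared for PBS replicates 1, 2 and 3. A smaller share of them than of all tiles was called lower against replicates 1 and 3, and a larger share against replicate 2. Against PBS, counts of calls were lower under several settings. With 10 reads per CpG they were 63 in F-MTAza, 66 in NP-MTAza and 37 in Aza replicate 3, of 96 tiles. With CpGs listed in all 10 libraries they were 282, 340 and 148 of 614, and with a PBS window of 30% to under 60% they were 283, 341 and 164 of 569. With members chosen on 2 PBS libraries and PBS read from the third they were 1, 16 and 2 (PBS replicate 1), 189, 253 and 80 (replicate 2) and 1, 18 and 2 (replicate 3), where PBS is a single library. With libraries of 1 barcode set NP-MTAza had 265 calls of 1021 tiles. Leaving out each library gave 192 to 533 calls in F-MTAza, 235 to 746 in NP-MTAza and 109 to 374 in Aza replicate 3. Between NP-MTAza and F-MTAza there were 0 calls in the main run. With 10 reads per CpG 2 members were called higher in NP-MTAza, on the percent scale 2 lower and with the replicate block 1 higher. Over all tiles 1 was lower and 2 higher of 639 with 10 reads per CpG, and 5 lower of 6052 on the percent scale. Leaving out a library gave 0 to 2 calls, with 1 lower and 1 higher without F-MTAza replicate 2 and again without F-MTAza replicate 3.

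The mean difference between combination and PBS was −15.0 points, −15.2 to −13.6 when a library was left out, and −13.6, −17.7 and −13.1 against PBS replicates 1, 2 and 3 when these had not chosen the members. The difference between NP-MTAza and F-MTAza was −1.84 to −0.80 when a library was left out, that between combination and Aza replicate 3 was 1.49 to 2.11, and that between the shares kept in uniform and edge tiles was 3.79 to 5.34 points. None of these mean differences reversed its direction under the alternatives run, whereas the few calls between NP-MTAza and F-MTAza went both ways. The setting that leaves out the deepest tiles was chosen after seeing the data.

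Same-numbered libraries deviated together with r from −0.067 to 0.044, so the numbers did not pair them. With the replicate block there were 166 calls of 990 in Aza replicate 3 and 1 between NP-MTAza and F-MTAza, and the mean difference between the latter kept −1.41 points (exact p = 0.25, the smallest possible). The tile levels are read-weighted, and a library that lists part of a tile gives that part alone. Only 990 of 2050 members were deep enough in all 10 libraries to be compared.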
